A study of Mus musculus with 18 samples.

Results

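The 5 developmental pluripotency-associated genes examined were Dppa1, Dppa2, Dppa3, Dppa4 and Dppa5a. They were taken by gene symbol, after Ensembl identifiers had been mapped to mouse symbols, from 55401 genes measured by RNA sequencing in 18 libraries, 2 for each of 9 groups. The starting group, D0, was mouse embryonic fibroblasts (MEF) of passages 1 to 3 from E13.5 embryos (midgestation) of the cross 129XOG2, where OG2 is a mouse that carries a green fluorescent reporter transgene driven by Pou5f1 (Oct4) sequences. D2, D4, D6, D8, D10 and D12 were the same cells on days 2, 4, 6, 8, 10 and 12 of chemical reprogramming, in medium renewed every 2 days and daily from day 4 to day 8. The small molecules of that medium are not given in the sources used here. The 2 reference groups were riPSC, induced pluripotent stem cells of the same cross, and mESC, the R1 embryonic stem cell line, which was derived from a blastocyst. Both were kept on feeder cells in medium with N2 and B27 supplements, 1000 units/mL mouse leukaemia inhibitory factor, 3 µM CHIR99021 (an inhibitor of the kinase GSK3) and 0.2 µM PD0325901 (an inhibitor of the kinase MEK). The D0 to D12 groups are whole cultures, so a fall in the number of cells that express a gene and less RNA in each such cell cannot be told apart.

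The Dppa genes were named for expression that resembles that of Pou5f1, not for a common sequence. DPPA2 and DPPA4 are the related pair: both carry a SAP domain, bind DNA together and keep promoters of developmental genes from gaining DNA methylation, and in mouse embryonic stem cells they act upstream of genes of the 2-cell embryo. DPPA3, also called Stella or PGC7, is a maternal and germline protein that shields 5-methylcytosine in the zygote and restrains the maintenance of DNA methylation by keeping UHRF1, the partner of the methyltransferase DNMT1, away from chromatin. DPPA5A, also called ESG1, is a KH-domain protein that binds RNA and marks pluripotent cells, whereas the function of Dppa1 is little described.

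In the mouse GRCm38 (mm10) assembly, with GENCODE M21 gene models, Dppa4 (ENSMUSG00000058550, chr16:48283733-48294237) and Dppa2 (ENSMUSG00000072419, chr16:48303908-48319723) lie on the plus strand with 9670 bases between them. Dppa3 (ENSMUSG00000046323, chr6:122626410-122630272) lies on the plus strand near Gdf3 and Nanog. Dppa5a (ENSMUSG00000060461, chr9:78367052-78368177) lies on the minus strand beside Ooep, which encodes another KH-domain protein, and Dppa1 (ENSMUSG00000064010, chr11:46607772-46629261) lies on the minus strand beside genes of the TIM receptor family. No annotated gene overlapped any of the 5.

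Dppa5a has 2 annotated pseudogenes, Dppa5b and Dppa5c, with near-identical transcripts, so the stretch that separates them least is shown because reads from it bear on the largest values reported here. The transcripts differed at 11 of 299 aligned positions (96.3% identity), the longest identical run was 104 bases, and no identical window of the read length, 150 bases, existed. The stretch is coding bases 120 to 269 of Dppa5a from GENCODE M21, the window of 150 bases with the fewest differences, and capitals mark the 5 differing bases. Dppa5b and Dppa5c were identical to each other over 348 bases.
Dppa5a: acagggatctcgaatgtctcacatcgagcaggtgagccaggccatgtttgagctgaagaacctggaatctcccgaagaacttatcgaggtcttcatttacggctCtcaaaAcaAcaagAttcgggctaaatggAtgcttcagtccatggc
Dppa5c: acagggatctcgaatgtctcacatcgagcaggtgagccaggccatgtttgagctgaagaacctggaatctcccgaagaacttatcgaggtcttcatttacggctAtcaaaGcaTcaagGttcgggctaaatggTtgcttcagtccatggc

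The Dppa1 promoter is shown because several genes around Dppa1 were, like it, high on D12 alone, as described further on. The sequence is from RefSeq (GRCm38.p6, chr11:46629225-46629524, minus strand) and covers 250 bases before to 50 bases after the annotated start. It held 1 CpG dinucleotide, against a median of 7 over 32851 mouse promoters of the same length, of which 14.1% held as few. Its GC content was 45.7%, against a median of 52.7%. Capitals mark the single match to the GATA-factor motif AGATAA, 69 bases before the start. That motif was found on either strand of 11.2% of the promoters.
Dppa1 promoter: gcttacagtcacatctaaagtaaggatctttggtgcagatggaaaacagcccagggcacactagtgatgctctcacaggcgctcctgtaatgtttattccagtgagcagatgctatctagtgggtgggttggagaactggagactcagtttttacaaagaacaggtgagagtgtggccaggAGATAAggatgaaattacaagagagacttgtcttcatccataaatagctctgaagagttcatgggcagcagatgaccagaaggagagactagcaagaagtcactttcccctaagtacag
The POU octamer ATTTGCAT, the estrogen-related receptor motif TCAAGGTCA, the SOX motif AACAATG and the TATA box TATAAA had no match on either strand of this window. They were found in 1.74%, 0.423%, 3.78% and 13.6% of the promoters. Motifs were chosen with the data in view, and a match is a description of letters only.

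Levels are in FPKM (fragments scaled by transcript length and by mapped reads), which allows genes of different length to be compared. From the smallest steps between values of 21767 single-exon genes, depth was estimated at 32.9 to 49.0 M reads or read pairs in 17 libraries, with D2 replicate 2 apart at 245 M, so that 1 read was worth 0.0026 to 0.020 FPKM of Dppa1. Labels matched the marker genes: the summed level of 10 fibroblast markers was 877 and 1337 FPKM in D0 and 83.1 and 88.5 FPKM in riPSC, and that of 8 pluripotent cell markers was 8.12 and 14.5 FPKM in D0 and 2089 and 2156 FPKM in riPSC. Mitochondrial genes took 62.3% and 62.1% of the summed FPKM on D12, 28.1% and 27.0% in riPSC and 0.437% and 1.89% in D0. The median replicate difference on the log2 scale was 0.28 in D0, 0.24 in D2, 0.18 in D4 and 0.090 to 0.14 in the other groups. In several low genes, named after their values were seen, D2 replicates 1 and 2 stood in the same proportion. They were 0.0157 and 0.00315 FPKM for Dppa2, 0.0190 and 0.00380 for Esrrb, 0.381 and 0.0762 for Sall4 and 0.0137 and 0.00274 for Dazl. Dppa5a, at 0.0116 and 0.00743 FPKM, did not show it. Whether the 2 D2 columns share reads was not tested, so the D2 depth, spread and tests are uncertain. The labels do not say whether the 2 libraries of a group came from separate cultures, so the spread behind the p-values is that of these libraries alone and may be technical.

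From D0 to D6 none of the 5 genes reached 0.4 FPKM in any library. Dppa1 was listed at 0 in all 8 libraries of D0, D2, D4 and D6, and Dppa4 in all but D6 replicate 2, where it was 0.0536 FPKM. Dppa2 reached 0.0761 FPKM in D6 replicate 1 and Dppa3 0.142 FPKM in the same library. Dppa5a was highest in D6 replicate 2, at 0.377 FPKM, with D6 replicate 1 listed at 0. These values stand for a few reads, and a gene listed at 0 was not detectable at this depth. By limma, with p-values adjusted over all 16439 tested genes, 0 of the 5 were called between D2 and D0, D4 and D2, D6 and D4 or D6 and D0. A call needed a difference of 2-fold or more on the log2(FPKM + 1) scale beside an adjusted p under 0.05. With every value under 0.4 FPKM no member could reach 2-fold on that scale, so these counts of 0 were fixed by the levels. With 0.1 added in place of 1, 1 of the 5 was called between D6 and D4 and 1 between D6 and D0. At an unadjusted p under 0.05, with 1 added, the count was 0 in each of the 4 comparisons. Over all tested genes, 24.1%, 18.5% and 41.6% were called between D2 and D0, D6 and D4, and D6 and D0, and 5.66% were higher and 4.48% lower on D4 than on D2. The shares that involve D2 carry the doubt about the D2 columns given above.

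**Figure D1:**
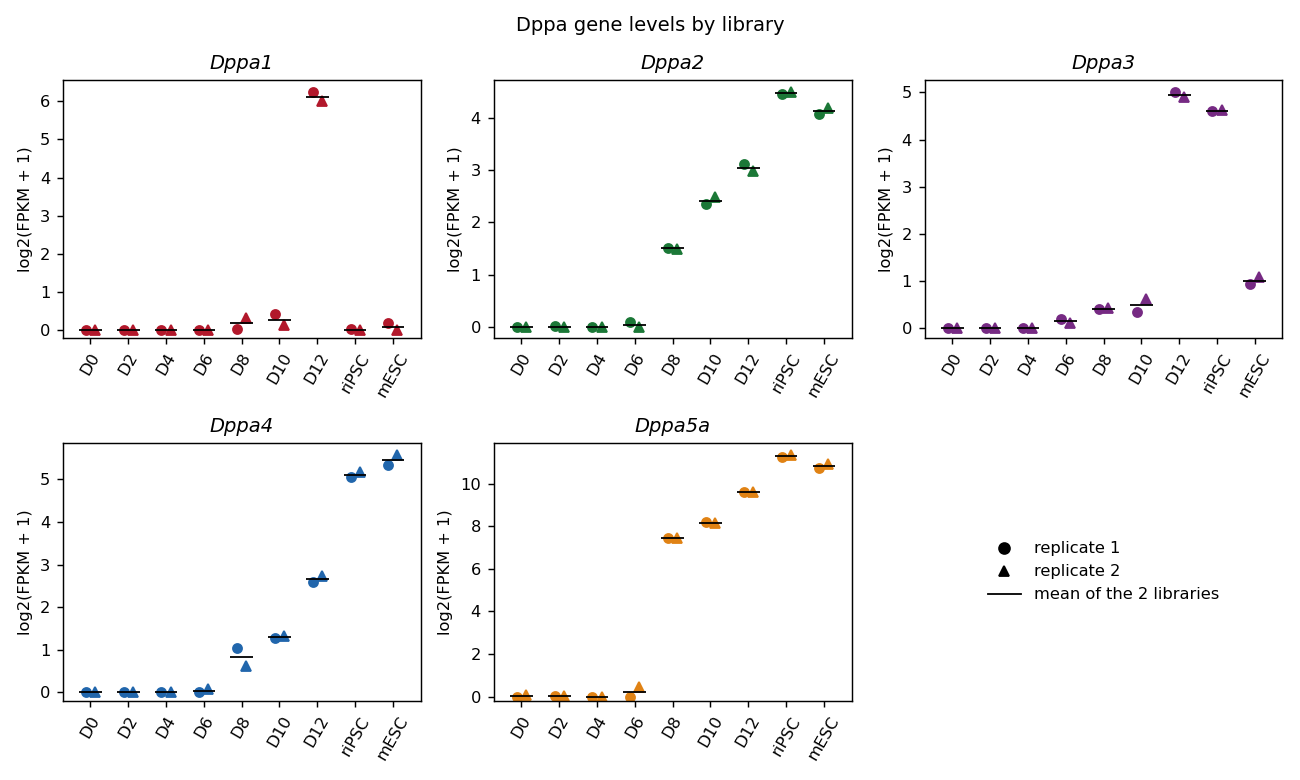
Level of each Dppa gene in every library, as log2(FPKM + 1) on the vertical axis, against the 9 groups; circles are replicate 1, triangles replicate 2 and lines the mean of the 2 libraries. The vertical scale differs between panels. Dppa1 stands above 1 FPKM only on D12, Dppa3 is high on D12 and in riPSC but near 1 FPKM in mESC, and the others step up from D8.

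Between D6 and D8, Dppa5a and Dppa2 rose. Dppa5a was 0 and 0.377 FPKM on D6 and 171 and 172 FPKM on D8, where it ranked 308 and 311 among all genes. Both D8 libraries stood far above both D6 libraries, and the difference was 7.20 ± 0.13 on the log2(FPKM + 1) scale (limma, standard error, adjusted p = 4.69e-12). Dppa2 was 0.0761 and 0 FPKM on D6 and 1.86 and 1.82 FPKM on D8, a difference of 1.45 ± 0.09 with no overlap (limma, adjusted p = 6.44e-08).

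Dppa4, the partner of Dppa2, was 0 and 0.0536 FPKM on D6 and 1.06 and 0.522 FPKM on D8. The groups did not overlap, but the 2 D8 libraries were unequal and the difference of 0.79 ± 0.13 (limma, adjusted p = 3.03e-04) was under 2-fold on that scale. Dppa3 was 0.142 and 0.0818 FPKM on D6 and 0.335 and 0.346 FPKM on D8, a difference of 0.27 that was not called (limma, adjusted p = 0.0423), and Dppa1 was 0.028 and 0.247 FPKM on D8 (limma, adjusted p = 0.261). Thus 2 of the 5 genes were called higher on D8, where 15.1% of all tested genes were. The small constant added before the log decides calls at such levels: with 0.1 in place of 1, 4 genes were called and Dppa4 differed by 2.78, and with 5 the call of Dppa2 was lost at 0.44. Without D8 replicate 2, Dppa4 differed by 1.01 and was called.

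The pluripotency regulators fixed as a list held 12 of 20 genes that rose from D6 to D8 and none that fell, where 15.1% of all tested genes rose, with a median difference of 1.44 on the log2(FPKM + 1) scale against 0.08 over all tested genes. Pou5f1 itself was 44.9 and 45.4 FPKM on D8, so the level of Dppa5a per unit of Pou5f1 was 3.82 and 3.80. On D8 the summed level of 8 markers of extraembryonic endoderm, a lineage of the early embryo beside the pluripotent one, was 1100 and 1035 FPKM, and that of the pluripotent cell markers 95.8 and 94.2 FPKM, with Fgf4 listed at 0. Of these sums, Col4a1 made up 590 and 547 FPKM and Pou5f1 44.9 and 45.4 FPKM. The part of these cell types in the Dppa levels was not tested.

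From D8 to D10 all 5 genes had the higher mean on D10, and none was called by limma, where 0.426% of all tested genes were called higher and 2.86% in either direction. At an unadjusted p under 0.05 the count was 3 of 5, where 21.2% of all tested genes were below it. Dppa5a was 295 and 282 FPKM on D10, Dppa2 4.08 and 4.57 FPKM and Dppa4 1.43 and 1.49 FPKM. Their differences from D8 were 0.74, 0.90 and 0.47 (limma, adjusted p = 0.00303, 6.45e-05 and 0.0435), each under 2-fold on that scale although both D10 libraries stood above both D8 libraries. With 0.1 added in place of 1, Dppa2 differed by 1.18 and was called. Dppa3 was 0.278 and 0.536 FPKM and Dppa1 0.338 and 0.0914 FPKM, both overlapping with D8.

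From D10 to D12, Dppa1 and Dppa3 rose from under 1 FPKM to over 28 FPKM, and Dppa4 and Dppa5a rose further. Dppa1 was 75.0 and 63.0 FPKM on D12, a mean of 69.0 ± 8.45 (SD, n = 2). No library of another group exceeded 0.338 FPKM, and the difference from D10 was 5.85 ± 0.13 on the log2(FPKM + 1) scale (limma, standard error). Dppa1 passed the filter on low values through the D12 libraries alone, so a gene with its pattern had to differ there, and without either D12 library it was not tested. Dppa3 was 31.3 and 28.7 FPKM on D12, with no overlap with D10, and the difference was 4.47 ± 0.10 (limma, adjusted p = 2.48e-11).

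Dppa4 was 5.04 and 5.60 FPKM and Dppa5a 776 and 784 FPKM on D12. Every D12 value stood above both D10 values, with differences of 1.36 ± 0.13 for Dppa4 and 1.43 ± 0.13 for Dppa5a (limma, adjusted p = 8.20e-06 and 4.36e-06). Dppa2, at 7.68 and 6.86 FPKM, was also above both D10 libraries, but its difference of 0.64 ± 0.09 was under 2-fold (limma, adjusted p = 2.14e-04). In all, 4 of the 5 were called higher, where 6.01% of all tested genes were, and 1 of these calls, that of Dppa1, followed from the filter. When values were rescaled to the same sum in every library (TPM), where the median difference of all genes was -0.45, Dppa4 and Dppa5a differed by 0.84 and 0.81 and were no longer called. With 0.1 added in place of 1, Dppa5a was not called either (limma, adjusted p = 0.0600).

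**Figure D2:**
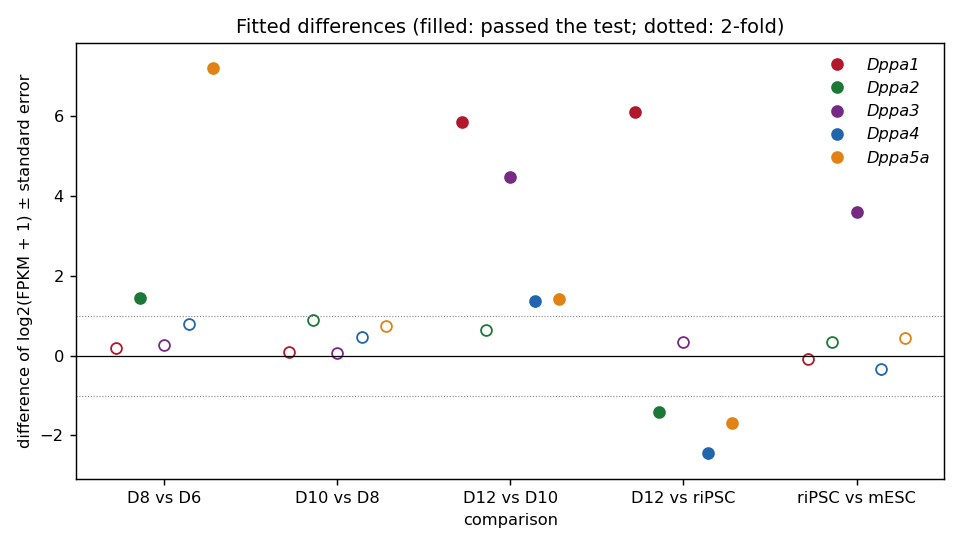
Fitted difference of log2(FPKM + 1) for each gene in 5 comparisons, with standard errors, most of which are smaller than the points. Filled points passed the test and dotted lines mark 2-fold. Dppa5a leads the step from D6 to D8, Dppa1 and Dppa3 the step from D10 to D12, and Dppa3 is the one filled point between riPSC and mESC.

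Several genes around Dppa1 stood above 1 FPKM on D12 alone. Within 250 kb of its start, a window chosen after the values of its neighbours had been seen, 17 genes were annotated beside Dppa1, of which 8 had at least 1 FPKM in both D12 libraries. Of those 8, 5 were under 1 FPKM in every library of the other 8 groups, as were 245 of the 12472 genes of the series (1.96%) with at least 1 FPKM in both D12 libraries. Havcr1, which encodes the receptor TIM-1, was 70.4 and 66.1 FPKM on D12 and at most 0.750 FPKM in any other library. Timd2, which encodes the receptor TIM-2 that binds ferritin, was 24.1 and 22.3 FPKM on D12 and at most 0.154 FPKM elsewhere. These genes, like Dppa1, passed the filter on low values through D12 alone, so their D12 levels are given with no test.

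On the other side of Dppa1, BC053393 was 79.9 and 72.4 FPKM on D12 and 1.70 and 2.17 FPKM on D10, a difference of 4.72 (limma, adjusted p = 7.05e-12). Gm12169 was 6.95 and 7.81 FPKM on D12 and at most 0.252 FPKM elsewhere, and it too passed the filter through D12 alone. Starts of the genes high on D12 alone ran from Gm12169 at -105.0 kb to Havcr1 at 105.8 kb from the Dppa1 start. Farther out, Havcr2 and Timd4, which encode the receptors TIM-3 and TIM-4, were listed at 0 on D12, and Med7, a subunit of the Mediator complex that is named after its values were seen, was 45.7 and 36.4 FPKM on D12 against a riPSC mean of 17.6 FPKM.

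**Figure D3:**
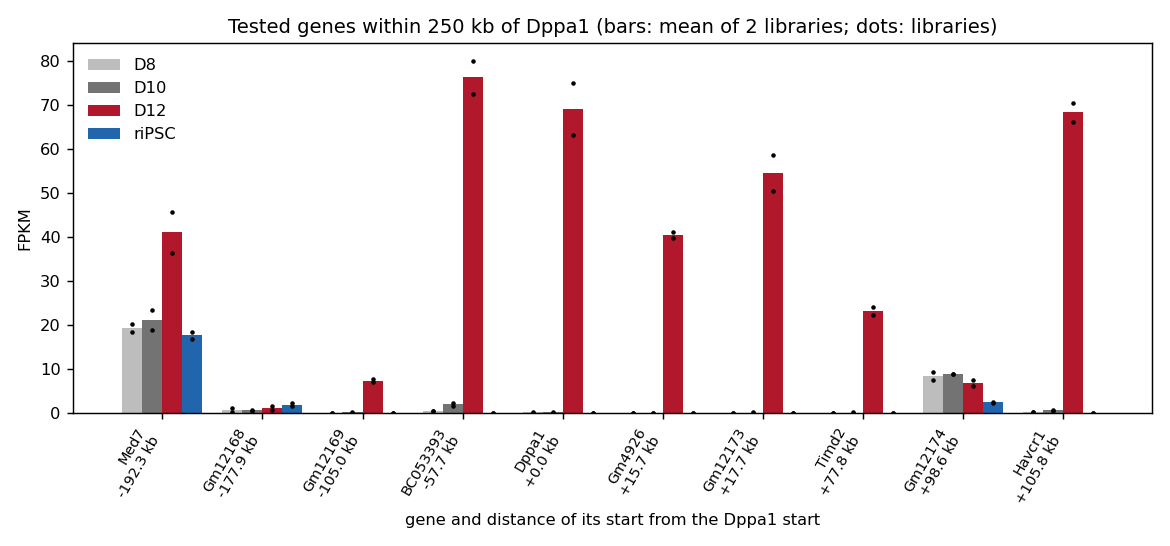
Mean FPKM (bars, 2 libraries each, dots for the libraries) on D8, D10, D12 and in riPSC for the 10 tested genes within 250 kb of Dppa1, ordered by the distance of their start in kb. The D12 bars of BC053393, Dppa1, Gm12173 and Havcr1 reach above 50 FPKM, whereas their riPSC bars are near 0.

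Among the other members, Dppa2 and Dppa4 are neighbours of each other, 9670 bases apart, with Pearson r = 0.954 over the 9 group means. Further neighbours of these members did not share one pattern with them. Gdf3, a growth factor of the TGF-beta superfamily whose gene lies 16322 bases from Dppa3, was 7.15 and 6.29 FPKM on D12 and 48.1 and 50.5 FPKM in riPSC, a difference of -2.70 on the log2(FPKM + 1) scale, where Dppa3 was not lower (limma, adjusted p = 4.91e-10). Nanog, a core pluripotency transcription factor 77216 bases from Dppa3, was 1.76 FPKM in both D12 libraries and 273 and 275 FPKM in riPSC (limma, adjusted p = 3.79e-14). Slc2a3, a glucose transporter gene 97536 bases away, was already 163 and 167 FPKM on D8, before Dppa3 had risen.

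Morc1, a germline silencing factor 111513 bases from Dppa2, was 0.316 and 0.346 FPKM on D12, when both Dppa2 and Dppa4 were above 5 FPKM, and 41.4 and 46.2 FPKM in riPSC (limma, adjusted p = 1.26e-11). Ooep, a maternal KH-domain gene 7931 bases from Dppa5a, was 1.94 and 2.07 FPKM on D8 and rose from D6 in the same interval as Dppa5a, by 1.25 (limma, adjusted p = 3.75e-07). On D12 it was 5.64 and 5.32 FPKM, below the 44.4 and 45.3 FPKM of riPSC, with a difference of -2.82 (limma, adjusted p = 9.44e-11).

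**Figure D4:**
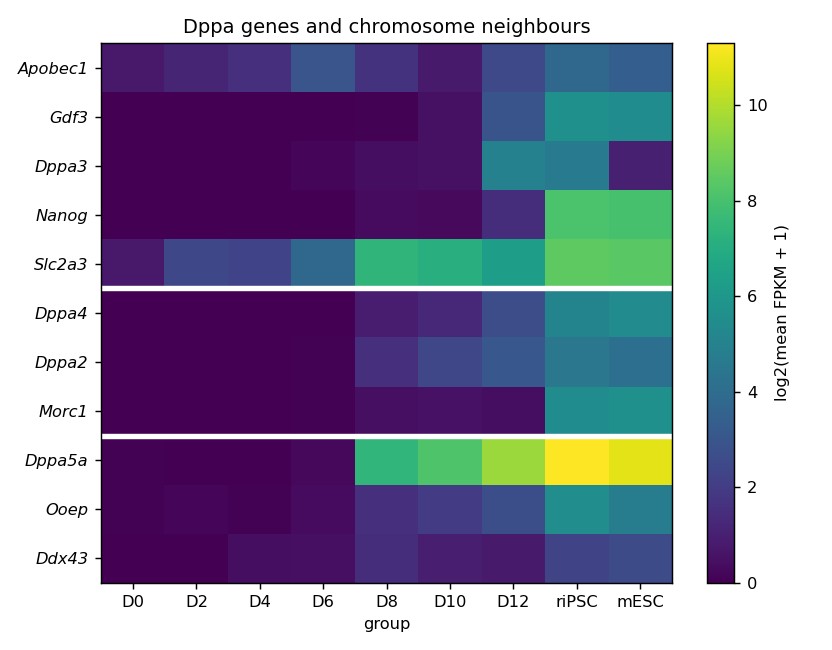
Colour gives log2(mean FPKM + 1) over 2 libraries in each of the 9 groups, for Dppa3 with 4 of its neighbours, Dppa4 and Dppa2 with Morc1, and Dppa5a with Ooep and Ddx43. On D12 Dppa3 is bright while Nanog is dark, and Dppa2 and Dppa4 are above Morc1.

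Relative to riPSC, the 5 genes were at different stages on D12. Dppa2 was 20.8 and 21.5 FPKM in riPSC, and its D12 mean was 34.4% of that level, a difference of -1.42 on the log2(FPKM + 1) scale (limma, adjusted p = 3.94e-08). Dppa4 was 32.1 and 35.1 FPKM in riPSC, its D12 mean was 15.8% of that, and the difference was -2.45 (limma, adjusted p = 7.16e-09). Dppa5a was 2409 and 2611 FPKM in riPSC, ranks 13 and 10 among all genes, and its D12 mean was 31.1% of that, a difference of -1.68 (limma, adjusted p = 2.03e-07). All D12 libraries of these 3 genes lay below all riPSC libraries. Rescaled to TPM, where the median of all genes was -1.01, the differences were larger, at -2.62 for Dppa2, -3.62 for Dppa4 and -3.01 for Dppa5a.

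Dppa3, at 23.3 and 23.7 FPKM in riPSC, was above that in both D12 libraries, with a D12 mean of 127.8% of the riPSC mean. Its difference of 0.34 ± 0.10 was under 2-fold and not called (limma, adjusted p = 0.0121). After rescaling to TPM the sign turned, to -0.94. Dppa1 was 0.0219 and 0 FPKM in riPSC, and D12 was higher by 6.11. Because Dppa1 passed the filter on low values through D12 alone, it had to differ there, so no p-value is given. In the D12 to riPSC comparison 3 of the 5 genes were thus lower, where 19.8% of all tested genes were. The 1 counted as higher, where 16.7% of all tested genes were, was Dppa1, whose call followed from the filter.

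The earlier days stood further from riPSC. On D8, 4 of the 5 genes were lower than in riPSC, where 15% of all tested genes were, with differences of -2.96 for Dppa2, -4.19 for Dppa3, -4.28 for Dppa4 and -3.86 for Dppa5a. D10 again had 4 of 5 lower, where 15.7% of all tested genes were, with -2.06, -4.13, -3.81 and -3.12 in the same order. The 3 comparisons share the riPSC libraries. As shares of the riPSC mean, Dppa2 was 8.71%, 20.4% and 34.4% on D8, D10 and D12, Dppa5a 6.85%, 11.5% and 31.1%, Dppa4 2.36%, 4.35% and 15.8%, and Dppa3 1.45%, 1.73% and 127.8%.

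**Figure D5:**
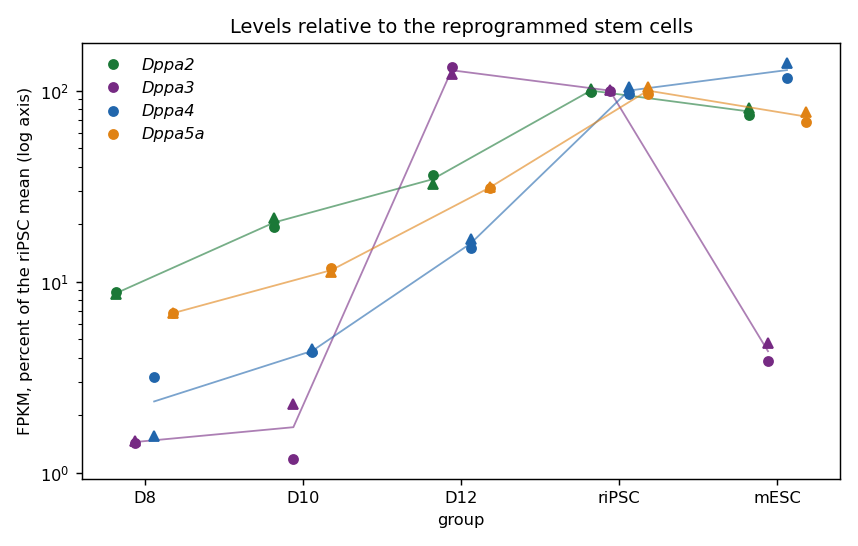
FPKM of 4 Dppa genes as a percent of their riPSC mean on a log axis, for D8, D10, D12, riPSC and mESC; circles are replicate 1, triangles replicate 2 and lines join means. Dppa3 crosses from 1.73% on D10 to 127.8% on D12, and in mESC Dppa3 is the gene far below the others, at 4.33%.

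Between riPSC and D0, 4 of the 5 genes were higher in riPSC, where 40.1% of all tested genes were called higher. Dppa5a differed by 11.25 ± 0.13 (limma, adjusted p = 1.82e-14), from 0 and 0.0663 FPKM in D0. Dppa2, Dppa3 and Dppa4 were listed at 0 in both D0 libraries, so no fold is given (limma, adjusted p = 1.13e-12, 2.26e-12 and 7.50e-12). Dppa1 was the exception, near 0 at both ends of the series (limma, adjusted p = 0.946). Apart from D12, Dppa1 was above 0.1 FPKM in 1 library each of D8, D10 and mESC, the last at 0.131 FPKM.

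The 2 stem cell groups differed in Dppa3. It was 23.3 and 23.7 FPKM in riPSC and 0.907 and 1.13 FPKM in mESC, with no overlap and a difference of 3.60 ± 0.10 on the log2(FPKM + 1) scale (limma, adjusted p = 4.35e-10). That was 1 of the 5 genes, where 1.84% of all tested genes were higher in riPSC. Dppa2 was 15.7 and 17.1 FPKM in mESC, below both riPSC libraries, and Dppa5a 1721 and 1949 FPKM, also below both, with differences of 0.35 and 0.45 that were under 2-fold (limma, adjusted p = 0.0291 and 0.0413). Dppa4, at 39.3 and 46.7 FPKM in mESC, was above both riPSC libraries and its difference of -0.34 did not pass (limma, adjusted p = 0.134). Dppa1 did not pass either (limma, adjusted p = 0.855).

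The order of the levels therefore differed among the genes. For Dppa2 it ran riPSC, mESC, D12, D10, D8, and among neighbours in that order a call separated mESC from D12 (1.08, limma, adjusted p = 5.58e-07) and D8 from D6, but not riPSC from mESC, D12 from D10 or D10 from D8. For Dppa5a the order was the same, and calls separated mESC from D12 (1.23, limma, adjusted p = 3.87e-06), D12 from D10 and D8 from D6. Dppa4 ran mESC, riPSC, D12, D10, D8, with calls between riPSC and D12 and between D12 and D10. Dppa3 ran D12 and riPSC, which no call separated and whose order turned with TPM, then mESC, D10 and D8, with a call between riPSC and mESC, and with mESC above D10 by 0.52 without a call (limma, adjusted p = 8.56e-04). Dppa1 had D12 alone above the rest, among which neighbours in the order overlapped.

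Ratios of FPKM within a library gave the balance between members. The level of Dppa4 per unit of Dppa2, the genes of the 2 partner proteins, was 0.572 and 0.287 on D8, 0.351 and 0.326 on D10 and 0.656 and 0.816 on D12. It was 1.54 and 1.63 in riPSC and 2.49 and 2.73 in mESC, so Dppa2 was the more abundant transcript during reprogramming and Dppa4 in both stem cell groups. The level of Dppa5a per unit of Pou5f1 was 3.82 and 3.80 on D8, 2.44 and 2.196 on D10 and 1.47 and 1.41 on D12, against 2.65 and 2.69 in riPSC and 2.01 and 2.07 in mESC. The level of Dppa3 per unit of Dppa5a was 0.0404 and 0.0367 on D12 and 0.00968 and 0.00907 in riPSC.

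The pseudogenes of Dppa5a had far lower deposited levels than Dppa5a. Dppa5b was 21.3 and 19.3 FPKM in riPSC and 2.35 and 0.19 FPKM on D12, and Dppa5c was 37.0 and 35.5 FPKM in riPSC and 1.81 and 0.677 FPKM on D12. Both were listed at 0 on D8 and D10, when Dppa5a was above 170 FPKM. How the authors' counting placed reads that match the stretch printed above at more than 1 locus is not given in the sources used here, so these values are uncertain. Dppa3 and its pseudogene Dppa3-ps differed at 8 of 451 aligned positions (98.2% identity), and Dppa2 and Dppa4 had 67.2% identity over the best local match of their transcripts.

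As a description over the 9 group means of log2(FPKM + 1), Dppa2 and Dppa5a were the closest pair of members (Pearson r = 0.967, n = 9 groups), followed by Dppa2 and Dppa4 (r = 0.954) and Dppa4 and Dppa5a (r = 0.864). Dppa3 had r = 0.725 with Dppa2, 0.687 with Dppa5a, 0.680 with Dppa1 and 0.658 with Dppa4, and Dppa1 and Dppa4 had r = 0.166. The 9 means share the same libraries and normalization. The genes most alike in pattern were sought among 9290 tested genes that reached a group mean of 10 FPKM. For Dppa1 they were Timd2 (r = 0.9996), Gm12173, Gm4926 and BC051665, the first 3 of which lie in the window around it. Dppa1 and these genes were near 0 outside D12 and passed the filter on low values through D12 alone. Their r values therefore had to be near 1, and the ranking among such genes carries no weight. For Dppa2 the genes most alike were 2410003L11Rik (r = 0.995), Zfp982 and Tfcp2l1, a transcription factor of naive pluripotency, and for Dppa4 Gpat2 (r = 0.999) and Zfp42, also called Rex1. For Dppa5a they were Trap1a (r = 0.999), L1td1, Pou5f1 and Esrrb. Dppa3 had no gene as close: the highest were Gm27335 (r = 0.919), Zfp993 and Calcoco2, with Zscan4f at r = 0.899.

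Of 8 genes of DNA methylation, the process that DPPA3 restrains, 2 were called higher on D8 than on D6 and none lower. They were Uhrf1, by 1.96 (limma, adjusted p = 4.23e-07), and, named after its values were seen, Dnmt3b, by 2.04. Over all tested genes 15.1% were called higher. The rise of Uhrf1 was a return from a low on D6: it was 20.5 and 26.4 FPKM on D4, 5.89 and 6.30 FPKM on D6 and 27.4 and 25.7 FPKM on D8. From D10 to D12, 2 rose: Dnmt3l, a cofactor of de novo methylation, by 3.02 (limma, adjusted p = 2.12e-08), and Tet2, an enzyme that oxidises 5-methylcytosine, by 1.72 (limma, adjusted p = 6.79e-05). None was called lower, although several, Uhrf1 and Dnmt1 among them, were lower in both D12 libraries than in both D10 libraries. Over all tested genes 6.01% were called higher. The list's median difference in that interval was 0.09 against -0.06 over all tested genes.

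Against riPSC, 4 of the 8 were called lower on D12 and none was called higher, with a median of -0.53 against -0.06. Dnmt3l, Tet2 and, named after their values were seen, Dnmt3a and Tet3 stood higher in both D12 libraries than in both riPSC libraries, without a call. Among all tested genes 19.8% were called lower and 16.7% higher, a split that TPM moved to 8475 lower and 1163 higher genes. Uhrf1 was 19.7 and 20.6 FPKM on D12 and 197 and 216 FPKM in riPSC, a difference of -3.29 (limma, adjusted p = 1.56e-09). Dnmt1, the maintenance methyltransferase, was 15.8 and 16.1 FPKM on D12 and 65.0 and 70.3 FPKM in riPSC, a difference of -2.02 (limma, adjusted p = 3.24e-06). Between riPSC and mESC, Dnmt3l was the 1 list gene called, at 19.11 and 22.2 FPKM in riPSC and 71.5 and 75.6 FPKM in mESC, opposite in direction to Dppa3 (-1.79, limma, adjusted p = 8.93e-06).

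Genes of the 2-cell-like state, which DPPA2 and DPPA4 act upstream of, were at most 0.0198 FPKM in any library through D8. Of 11 in the list 6 were tested, all 6 were higher on D12 than on D10, and all 6 were higher on D12 than in riPSC. Apart from Zscan4f, which was also above 1 FPKM in both riPSC libraries, they passed the filter on low values only with D12, so these counts are a description. Zscan4f, a marker of that state, was 12.3 and 11.7 FPKM on D12, 1.33 and 1.86 FPKM in riPSC and 0.247 and 0.453 FPKM in mESC. Zscan4c was 6.199 and 6.27 FPKM on D12, and the Zscan4 copies are near-identical, so how reads were divided among them is uncertain.

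On D12 the summed level of 6 such markers was 25.7 and 23.9 FPKM, that of the pluripotent markers 633 and 665 FPKM with Fgf4 still listed at 0, and that of the extraembryonic endoderm markers 1894 and 1945 FPKM against 13.6 and 14.8 FPKM in riPSC. Pou5f1, at 528 and 558 FPKM, made up most of the pluripotent sum, in which Nanog was 1.76 FPKM in both libraries. Col4a1, at 1043 and 1071 FPKM, made up most of the endoderm sum and was already 30.0 and 42.5 FPKM in D0. All 8 endoderm markers had a mean of at least 1 FPKM on D12, as they already had on D4, D6, D8 and D10. Sox7, at 22.9 and 22.6 FPKM on D8 and 2.98 and 3.87 FPKM on D12, and Sox17 were lower in both D12 libraries than in both D8 libraries. The other endoderm markers were higher. Of the fibroblast markers, Col1a1, Col1a2 and Col3a1, the collagen genes, were 207 and 215, 148 and 152, and 248 and 255 FPKM on D12 and made up most of their sum of 644 and 664 FPKM. Thy1 was 6.77 and 7.02 FPKM on D12 against 885 and 894 FPKM on D6, and Twist1 9.11 and 9.80 FPKM against 429 and 430 FPKM. The part of these cell types in the D12 levels of Dppa1 and Dppa3 was not tested.

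Pluripotency regulators had 9 of 20 genes called higher and 1 called lower on D12 than on D10, where 6.01% of all tested genes were called higher. On D12, 14 of 20 were called lower than in riPSC and none higher, where 19.8% of all tested genes were called lower. The median was -1.94 against -0.06 over all tested genes. Klf4, Klf5 and Tet2, named after their values were seen, stood higher in both D12 libraries than in both riPSC libraries, without a call. Pou5f1 was 528 and 558 FPKM on D12 and 910 and 970 FPKM in riPSC, a difference of -0.79 that was under 2-fold (limma, adjusted p = 6.16e-06). Tdgf1, which encodes a co-receptor of Nodal, was 35.6 and 35.1 FPKM on D12 and 567 and 582 FPKM in riPSC, a difference of -3.99 (limma, adjusted p = 2.90e-12). Dppa2, Dppa4 and Dppa5a lay between these 2 regulators in their distance from riPSC.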

How the data were processed

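The 18 libraries were sequenced as 150 bp reads. Per the submitters' processing notes, the tools included fastp 0.20.1, HISAT2 2.2.1 and StringTie 2.0, and the build was mm10. The values are FPKM per gene as deposited by the authors, with the unit read from the values, since column sums differed between libraries. The annotation release and the treatment of reads with several matches are not given in the sources used here. Symbols and positions came from GENCODE M21, in which 55141 of 55401 identifiers had a symbol.

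Values were transformed to log2(FPKM + 1). The 16439 genes with at least 1 FPKM in at least 2 libraries were fitted with limma 3.58.1 in R 4.3.3, all 18 libraries together, with a mean for each group, 9 residual degrees of freedom and empirical Bayes moderation. Tests were two-sided, with Benjamini-Hochberg adjustment within each of 12 comparisons. A call needed an adjusted p under 0.05 and a difference of at least 2-fold on that scale, and the fold of low genes is understated by the constant of 1. The code was tested on simulated data. The genes named were the 5 Dppa genes, the 5 genes most correlated with each over group means, the 3 nearest protein-coding genes on each side, and up to 4 genes per list with the highest group mean, and the exceptions are marked in the text as named after their values were seen. Single cell type markers were also named after their values were seen. The Dppa genes, lists and comparisons were chosen with earlier results of these data known. Same-numbered libraries of different groups did not deviate together, so no pairing was used. Alternatives changed the added constant, filter, scaling, fold threshold, libraries fitted and eBayes trend. Promoters of Dppa2, Dppa3, Dppa4 and Dppa5a and protein sequences were not used here.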

Additional observations from a re-analysis of the deposited data

How the results depend on the processing

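Of the counts of Dppa genes called in 12 comparisons, 178 alternative values were within 1.5 times of the reported one and 9 were not. With 0.1 added before the log in place of 1, the count was 1 of 5 between D6 and D4, 4 between D8 and D6 (2 reported), 1 between D10 and D8 (0 reported) and 1 between D6 and D0. With 5 added, 1 was called between D8 and D6. Without the 2-fold threshold, 4 were called between D8 and D6, 3 between D10 and D8 and 3 between riPSC and mESC (1 reported). Rescaled to TPM, 2 were called between D12 and D10 (4 reported), and Dppa3 between D12 and riPSC reversed, to -0.94 (limma, adjusted p = 4.68e-06); its difference was 0.52 with median-of-ratios scaling and 0.57 with mitochondrial genes left out, the latter an alternative chosen after seeing the data, as was the fit without D0, D2 and D4. The cause of these changes was not tested. TPM also moved the calls over all tested genes, from 988 higher and 769 lower to 401 and 2498 between D12 and D10, from 2747 and 3253 to 1163 and 8475 between D12 and riPSC, from 2486 and 1862 to 1608 and 3200 between D8 and D6, and from 303 and 197 to 520 and 172 between riPSC and mESC. Between riPSC and D0 the split went from 6595 higher and 2134 lower to 4804 and 3467 with median-of-ratios scaling, and the median of all genes from 0.62 to 0.19. Leaving out a library kept every count within 1.5 times, while without either D12 library Dppa1 failed the filter and without a D8 library Dppa4 between D8 and D6 ranged from 0.57 to 1.01. Of values of single Dppa genes, 486 kept direction and side of the threshold, 11 gained a call, 5 lost one and 1 reversed. Correlations of deviations between same-numbered libraries ran from -0.23 to 0.27 (median 0.0074) over 36 pairs of groups, and only 5 exceeded 0.1, so the numbers were not taken as pairs. In a fit with the replicate block the counts were the same as reported in all 12 comparisons, for example 2 between D8 and D6 and 4 between D12 and D10. With 2 libraries per group, differences in genes of a few reads were not detectable at this depth.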

Other observations

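Genes of 2 further lists were measured beside the Dppa genes. Of 13 germline genes, 10 were tested, 5 rose from D10 to D12, where 6.01% of all tested genes did. On D12 2 were higher and 7 lower than in riPSC, where 16.7% and 19.8% of all tested genes were, so the 2 higher are near that share. Dazl, an RNA-binding regulator of germ cells, was 19.0 and 14.6 FPKM on D12 and 5.90 and 5.60 FPKM in riPSC, higher by 1.39 on the log2(FPKM + 1) scale (limma, adjusted p = 8.76e-07). Asz1, a piRNA pathway gene named after its values were seen, was 3.18 and 4.11 FPKM on D12 and 0.0806 and 0.0944 FPKM in riPSC, the other gene higher. It passed the filter on low values through D12 alone, so it had to differ there. Its part in the counts of genes that rose from D10 and that were higher than in riPSC followed from the filter. Mael, a piRNA pathway gene, was 0.462 and 0.555 FPKM on D12 and 8.099 and 9.44 FPKM in riPSC, a difference of -2.69 (limma, adjusted p = 2.83e-09). It was 2.43 and 2.15 FPKM in mESC, lower than in riPSC, as was Ddx4, the germ cell helicase also called Vasa, which is named after its values were seen.

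A list of maternal genes, most of them KH-domain genes like Dppa5a, had 5 tested genes of 7. Khdc3, an oocyte and embryo gene, was listed at 0 on D8, was 4.91 and 4.44 FPKM on D12, 28.0 and 27.7 FPKM in riPSC and 65.6 and 73.1 FPKM in mESC, and the last 2 differed by -1.28 (limma, adjusted p = 1.34e-06). Khdc1a was 0.563 and 0.370 FPKM on D8, 1.27 and 1.42 FPKM on D10 and 3.32 and 2.39 FPKM on D12, and was listed at 0 in all riPSC and mESC libraries. Tle6, which is not a KH-domain gene, was between 5.01 and 5.71 FPKM on D12 and between 3.41 and 3.59 FPKM in riPSC.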
